A study of Mus musculus with 24 samples.

Results

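Splenic CD4+ T cells of mice labelled Aim2-/- were compared before stimulation (0 h) and after 24 h with antibodies to CD3 and CD28, in libraries of messenger RNA from the Aim2-/- mice 1, 2 and 4. The comparison holds 6 of the 24 libraries of the series, 3 at each time. They were chosen by the genotype and time that the labels give and paired by the mouse number. The same mice were also sequenced at 3 h and 6 h, and 3 mice labelled wild type (WT 1, 3 and 4) at the same 4 times. All mice are described as of C57BL/6 background, with no age in the labels and nothing on the allele of Aim2. How the CD4+ T cells were purified and how the antibodies were presented is not given in the labels. The 0 h cells are labelled as controls, and no library of cells cultured for 24 h without the antibodies was analysed here, so culture and stimulation cannot be told apart.

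A resting T cell is small and nearly silent in protein synthesis, and transcription factors such as KLF2, FOXO1 and TCF7 keep it circulating between blood and lymphoid organs. Ligation of the T cell receptor with CD28 costimulation starts the transcription of cytokines and of MYC, after which the cell enlarges its ribosomes, mitochondria and nucleotide supply and enters the cell cycle within about a day. AIM2, a cytosolic sensor that binds double-stranded DNA and assembles an inflammasome, is the product of the gene named in the genotype, and its protein was not measured here.

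Most of the measured genes differed between the 2 times. Of 15325 genes tested, 11614 (75.8%) were called, meaning an adjusted p under 0.05 (edgeR's quasi-likelihood test, Benjamini-Hochberg adjustment); 5980 (39%) were higher and 5634 (36.8%) lower at 24 h. The log2 fold change went beyond 1 in 3717 of the genes called higher (24.3% of those tested) and below -1 in 3316 of those called lower (21.6%). The values of the 2 groups of 3 libraries did not overlap in 10858 genes (70.9%). With so large a background, a list of genes is described below by how its counts depart from 39% higher and 36.8% lower, and by its median against the median of 0.02 over all genes tested. Library totals in the 6 libraries lay between 19715161 and 21169479 counts, and levels are given as CPM, counts per 1000000 of the library total after scaling by its TMM factor (edgeR). On that scale a floor of 3 counts lies at 0.145 to 0.154 CPM. In bulk RNA, fewer cells of a type and less RNA per cell cannot be told apart, and a change in total RNA per cell is not visible.

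Values in the 3 mice are given in the order 1, 2 and 4 throughout, and means with their SD (n = 3). Aim2 (ENSMUSG00000037860, GRCm38 chr1:173350879-173466040) still received reads in the cells labelled Aim2-/-, 15.7, 20.1 and 19.001 CPM at 0 h and 6.55, 7.15 and 5.28 CPM at 24 h (log2 fold change -1.53, SE 0.19, adjusted p 1.6e-07). The remaining signal was lower at 24 h in all 3 mice. The deposited table gives 1 count per gene, so it does not show which exons these reads cover, and reads outside any deleted part would check nothing. In the cells labelled WT, mouse 1 had 21.5 CPM at 0 h and 5.57 CPM at 24 h, next to the Aim2-/- values, whereas the 0 h levels of mice 3 and 4 were 75 and 67.5 CPM. In the level of this 1 gene the libraries labelled WT 1 thus go against their label, and no other gene was used to judge it. Counts of genes whose response differed from WT are given below with and without them.

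The summed level of 10 CD4 T cell markers, among them Cd3e, Cd4, Lck and Trac, stood at 5773, 6027 and 6025 CPM at 0 h and at 4495, 4694 and 4635 CPM at 24 h. Markers of other cells summed to less. Those of myeloid cells, neutrophils, plasma cells, B cells, basophils and mast cells, dendritic cells, erythroid cells and platelets were highest in mouse 1 at both times. The 12 myeloid markers summed to 503, 172 and 259 CPM at 0 h and 215, 42.1 and 58.1 CPM at 24 h. All 12 were tested, 9 were called lower and none higher. Neutrophil markers, 9 of 11 tested and all 9 called lower, summed to 334, 119.5 and 159 CPM and then 89.6, 9.77 and 22.4 CPM. The 6 plasma cell markers, all called lower, fell from 1049, 642 and 1010.5 CPM to 445, 236 and 308 CPM. Immunoglobulin genes took 1.60 ± 0.359% of counts at 0 h and 0.261 ± 0.166% at 24 h (exact permutation test, two-sided, unpaired, p = 0.1). This test left the pairing by mouse aside, and its p is the smallest that 3 against 3 allow. For B cell markers the sums were 53.2, 19.4 and 21.4 CPM at 0 h and 36.6, 8.16 and 8.11 CPM at 24 h, with 5 of 9 called lower and 1 higher. Basophil and mast cell markers summed to 164, 80.02 and 118 CPM against 241, 72.9 and 129 CPM, with 3 of 7 called higher and 2 lower. Dendritic cell markers, 7 of 8 tested, summed to 113, 61.4 and 77.4 CPM and then 188, 134 and 182 CPM, a rise carried by Bst2, which lymphocytes also express, while Flt3, Zbtb46, Siglech, Xcr1 and Cd209a were called lower and Xcr1 was at 0 in all 3 libraries at 24 h. Of the remaining lists, 6 of 8 NK cell markers were called lower and none higher, 3 of 9 erythroid markers higher and 2 lower, 1 of 5 platelet markers higher and 2 lower, and both CD8 T cell markers higher.

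The largest rises belonged to secreted messengers and to enzymes of amino acid and one-carbon metabolism. Ccl1, a chemokine of activated T cells that attracts CCR8-bearing cells, had 0.678, 0.246 and 0.148 CPM at 0 h and 665, 145 and 253 CPM at 24 h (log2 fold change 9.84, SE 0.49, adjusted p 9.8e-14). Il3, a growth factor for basophils and other haematopoietic cells, was measured at 0.0484, 0 and 0.0492 CPM at 0 h and 30.8, 18.5 and 21.9 CPM at 24 h. The 0 h libraries held 2 counts in all, so the ratio of 730.2-fold (95% exact counting interval 202 to 6035), which covers counting error only, is imprecise. Il2, the growth factor that T cells make for themselves, was measured at 3.1, 1.82 and 2.71 CPM at 0 h and 118, 86.4 and 109 CPM at 24 h (log2 fold change 5.37, SE 0.22, adjusted p 4.95e-15).

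Other chemokines among the 12 largest rises spread widely between mice. Ccl22 (chr8:94745590-94751699) and Ccl17 (chr8:94810453-94812036), neighbouring genes on chromosome 8 that encode the ligands of CCR4, reached 262, 41.9 and 98.7 CPM and 26.5, 2.82 and 9.54 CPM at 24 h. The log2 fold change of Ccl22 was 8.34 (SE 0.30), and the ratio of summed counts of Ccl17 was 161-fold (95% exact counting interval 68.6 to 496), its 0 h values being 0.0484, 0.0985 and 0.0985 CPM. Ccl24, an eosinophil attractant, reached 46.9, 6.15 and 14.8 CPM from 0.0969, 0 and 0.0985 CPM, a ratio of 351-fold (95% exact counting interval 137 to 1289). In all 3 genes mouse 1 was highest and mouse 2 lowest, the same order as the summed myeloid markers at 24 h given above, and Ccl1, Ccl3, Ccl4, Il2 and Il3 had that order too. The order is not particular to the myeloid sum. At 24 h the neutrophil, plasma cell, basophil and mast cell, dendritic cell, NK cell, erythroid and platelet sums had it too. The B cell and CD8 T cell sums did not. The part of any of these cells in the rises was not tested. The inflammatory chemokine genes Ccl3 and Ccl4, encoded side by side on chromosome 11, rose from 3.46 ± 2.01 to 375, 135 and 253 CPM and from 5.71 ± 2.69 to 330.5, 124 and 233 CPM.

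The remaining 4 of the 12 were metabolic or binding proteins and were tighter across mice. Shmt1, the cytosolic serine hydroxymethyltransferase, was measured at 6.25, 6.25 and 9.11 CPM at 0 h and 237, 344 and 309 CPM at 24 h (log2 fold change 5.38, SE 0.20, adjusted p 1.45e-15). Its span overlaps that of Smcr8 on the other strand, and whether the counting used strand is not stated. Bcat1, the cytosolic branched-chain aminotransferase, had 4.75, 3.004 and 3.2 CPM at 0 h and 139, 185 and 143 CPM at 24 h and a log2 fold change of 5.40 (SE 0.23). Crabp2, which carries retinoic acid to the nucleus, reached 118, 103 and 147 CPM from 0.194, 0.0985 and 0.295 CPM at 0 h (log2 fold change 9.29, SE 0.42, adjusted p 2.06e-14), and Hpdl, a mitochondrial dioxygenase, reached 8.12, 13.3 and 12.2 CPM from 0, 0.197 and 0.197 CPM (log2 fold change 6.43, SE 0.42, adjusted p 8.06e-12).

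**Figure D1:**
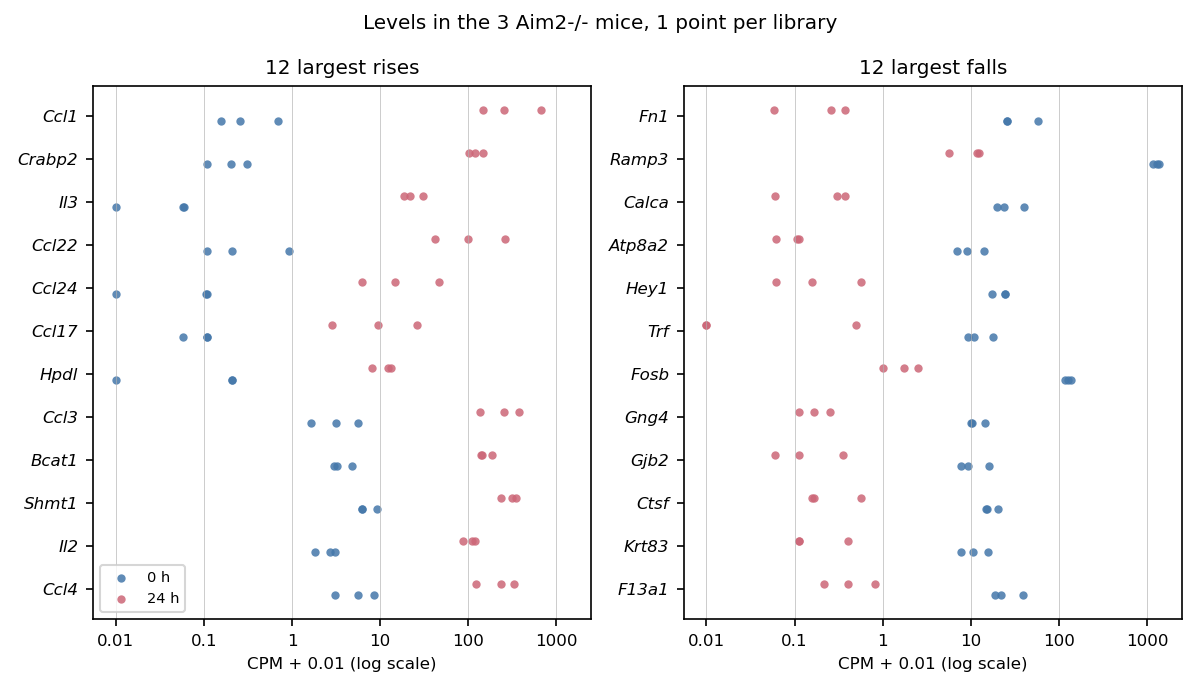
Levels of the 12 genes with the largest rise and the 12 with the largest fall, on a log scale of CPM with 0.01 added. Each point is 1 library, blue at 0 h and red at 24 h; genes with overlapping times were not eligible, and the chemokines Ccl22, Ccl24 and Ccl17 spread most between mice at 24 h among the 12 rises.

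Among the falls, Ramp3 stood out by level. It encodes a receptor activity-modifying protein that pairs with the calcitonin receptor-like receptor to form adrenomedullin and CGRP receptors. Ramp3 was measured at 1369.8, 1159 and 1284 CPM at 0 h and 12.4, 5.59 and 11.7 CPM at 24 h (log2 fold change -7.04, SE 0.20, adjusted p 3.13e-17), passing through means of 562 CPM at 3 h and 204 CPM at 6 h. Calca, the gene for calcitonin and CGRP, was measured at 39.6, 19.5 and 23.5 CPM at 0 h and 0.293, 0.0504 and 0.359 CPM at 24 h (log2 fold change -6.83, SE 0.23, adjusted p 2.81e-16). Of 8 tested genes of CGRP and neuropeptide signalling, 6 were called lower and 1 higher. Ramp1, the partner that makes the CGRP receptor, fell with a log2 fold change of -1.36 (SE 0.17). Calcrl, the shared receptor subunit, was the gene called higher (log2 fold change 0.42, SE 0.17, adjusted p 0.0316), a call lost under 10 of 19 alternatives, among them the fit without the mouse term, DESeq2 and the fits without mouse 2 or mouse 4.

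Fosb, a partner of JUN in AP-1, was the immediate early gene with the largest fall, 138, 115 and 127 CPM at 0 h and 2.49, 1.01 and 1.74 CPM at 24 h (log2 fold change -6.18, SE 0.20, adjusted p 2.43e-16). Hey1, a Notch target repressor, went from 22.1 ± 4.19 to 0.251 ± 0.267 CPM, and Ctsf, a lysosomal cysteine protease, from 16.8 ± 3.01 to 0.285 ± 0.233 CPM. Gng4, a G protein gamma subunit, and Atp8a2, a phospholipid flippase, fell by log2 fold changes of -6.08 (SE 0.30) and -6.79 (SE 0.35). Atp8a2 held 5 counts in all at 24 h, a ratio of 121-fold (95% exact counting interval 51.4 to 373). Fn1, F13a1 and Trf, which macrophages and other non-lymphoid cells express, had 0 h values of 58.3, 25.7 and 25.8, of 39.4, 18.5 and 21.7 and of 17.9, 9.31 and 10.8 CPM and were all under 1 CPM in every 24 h library. Mouse 1 had the highest 0 h value of all 3 genes and also the highest myeloid sum, which itself includes Fn1. The part of the myeloid cells in these falls was not tested. Gjb2 and Krt83 complete the 12, with log2 fold changes of -5.99 (SE 0.32) and -5.83 (SE 0.35).

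The 35 gene lists covered the functions that a T cell changes on activation and are described one after the other. The mitosis list had the highest median, 3.36 on the log2 scale, and the list of chemokine and homing receptors the lowest, -2.02.

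**Figure D2:**
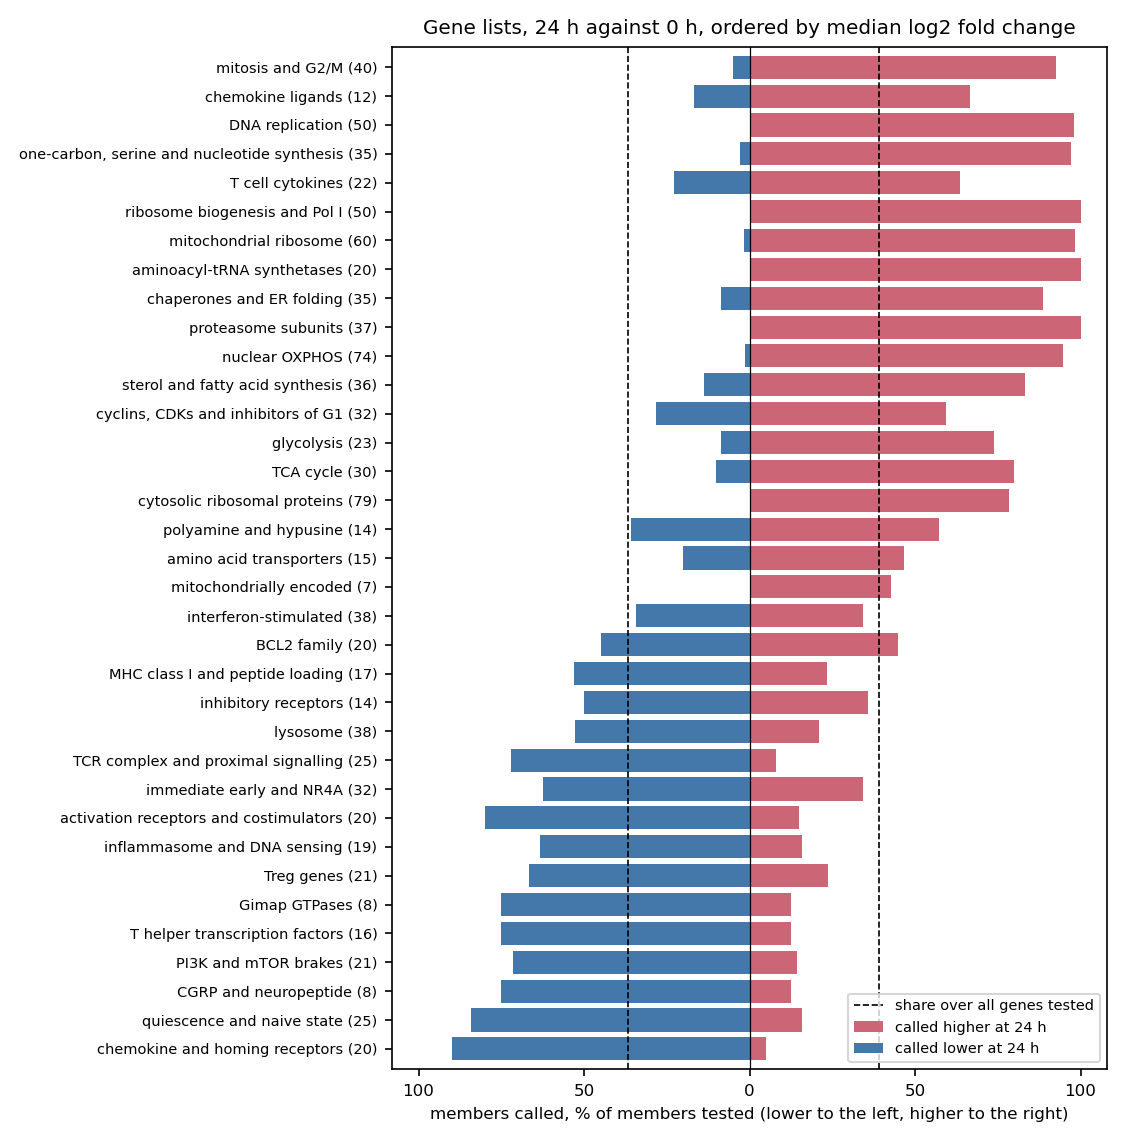
Share of the tested members of each list that were called higher (red, to the right) or lower (blue, to the left) at 24 h, with the number tested in brackets and the share over all genes tested as dashed lines at 39% and 36.8%. The growth and proliferation lists are red almost throughout, and the quiescence and homing lists are mostly blue.

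Most cytokine genes were called higher. Of 22 tested, 14 were called higher and 5 lower, with a median log2 fold change of 2.03, unchanged when genes at 0 at 0 h are set to their bound. Ifng, the Th1 effector cytokine, was measured at 31.9, 16.5 and 32.05 CPM at 0 h and 435, 169.6 and 346 CPM at 24 h (log2 fold change 3.55, SE 0.25, adjusted p 2.01e-11); mouse 2 lay lowest at both times. Lta, encoding lymphotoxin alpha, went from 20.2 ± 1.66 to 289 ± 92.1 CPM. Il9 and Il24 had no count in any 0 h library and reached 6.21, 1.01 and 5.03 CPM and 4.3, 1.51 and 5.39 CPM, at least 27.8-fold and 25.4-fold above the floor.

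Several effector cytokines had their highest mean at 6 h instead. Il4, the Th2 cytokine, had means of 7.1, 50.5, 82.6 and 20.9 CPM at 0, 3, 6 and 24 h. The Th17 cytokine Il17a had 0.425, 6.02, 11.7 and 7.7 CPM, Csf2, encoding GM-CSF, had 1.06, 17.8, 46.1 and 23.6 CPM, and Tnf had 41.5, 133, 238 and 145 CPM. At 24 h all 4 genes were still called higher than at 0 h, with log2 fold changes of 1.48 (SE 0.22), 4.06 (SE 0.37), 4.42 (SE 0.21) and 1.81 (SE 0.15). Cytokines called lower were the anti-inflammatory genes Il10 and Tgfb1, the lymphotoxin subunit Ltb, Il16 and Il21. Il10 was measured at 70.8, 61.2 and 48.4 CPM at 0 h and 41.4, 13.7 and 18.9 CPM at 24 h (log2 fold change -1.38, SE 0.20, adjusted p 1.95e-06), already at 27.4 CPM at 3 h. Of 12 chemokine ligands, 8 were called higher and 2 lower. Ccl5, a chemokine of memory and effector cells, was the larger fall, 252, 250.3 and 334 CPM at 0 h and 24.7, 12.5 and 15.4 CPM at 24 h (log2 fold change -3.99, SE 0.17, adjusted p 8.43e-15). The smaller one, Cxcl10, was called lower with -0.67 (SE 0.26), a call lost under 7 of 19 alternatives, among them the fits without mouse 2 or mouse 4.

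Receptors for homing went down as a group. Of 20 tested, 18 were called lower and 1 higher, with a median of -2.02. S1pr1, which lets T cells leave lymphoid organs along the sphingosine-1-phosphate gradient, was measured at 884, 1236 and 1181 CPM at 0 h and 70.7, 55.2 and 46.4 CPM at 24 h (log2 fold change -4.27, SE 0.15, adjusted p 8.73e-16). Its fall was early, with 349 CPM at 3 h. Ccr7, the receptor for entry into lymph nodes, had 1049, 1640.4 and 1626 CPM at 0 h and 206, 296 and 322 CPM at 24 h (log2 fold change -2.38, SE 0.10, adjusted p 5.19e-15), and most of its fall was complete at 3 h (374 CPM). Cxcr4, the CXCL12 receptor, went from 671 ± 77.5 to 39.3 ± 24.5 CPM. The only member called higher was Ccr4, the receptor of the CCL17 and CCL22 proteins, at 39.7, 34.03 and 39.3 CPM at 0 h and 146, 204 and 165 CPM at 24 h (log2 fold change 2.17, SE 0.17, adjusted p 2.32e-10). Without mouse 1, Ccr4 and 1 more member were called higher.

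Genes of quiescence and the naive state were lower in 21 of 25 members and higher in 4. The transcription factor Klf2, which drives S1pr1, had 485, 605 and 709 CPM at 0 h and 69.3, 46.2 and 60.7 CPM at 24 h (log2 fold change -3.34, SE 0.17, adjusted p 1.04e-13). Il7r, the receptor for the survival cytokine IL-7, had 477, 733 and 641 CPM at 0 h and 55.9, 42.5 and 38.2 CPM at 24 h (log2 fold change -3.75, SE 0.16, adjusted p 8.13e-15). Lower levels were also called for Tsc22d3, the glucocorticoid-induced leucine zipper (-3.76, SE 0.13), for the thioredoxin inhibitor Txnip (-3.05, SE 0.12), for the antiproliferative genes Btg2 (-2.97, SE 0.12) and Tob1 (-2.85, SE 0.14), and for Foxo1 (-1.90, SE 0.08). Tcf7 and Lef1, which encode the TCF1 and LEF1 factors of naive cells, fell less, from 1332 ± 246 to 615 ± 67.3 CPM and from 448 ± 123 to 193 ± 24.3 CPM and stood at 609.6 and 156 CPM already at 3 h. Among the 4 exceptions, Dapl1 was measured at 3.24, 8.17 and 5.37 CPM at 0 h and 28.8, 62.9 and 51.9 CPM at 24 h (log2 fold change 3.12, SE 0.14, adjusted p 3.06e-14) after a mean of 2.72 CPM at 6 h.

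Negative regulators of PI3K and mTOR followed the same direction. Of 21 tested, 15 were called lower and 3 higher, with a median of -1.25. Pik3ip1, an inhibitor of the PI3K catalytic subunit, went from 118 ± 25.01 to 17.5 ± 3.34 CPM (log2 fold change -2.75, SE 0.17, adjusted p 3.27e-12). The amino acid sensors and stress inhibitors Sesn1, Castor1 and Ddit4 fell with log2 fold changes of -1.94 (SE 0.10), -1.53 (SE 0.14) and -2.08 (SE 0.15). The 3 called higher, Depdc5, Nprl3 and Tsc2, were changed by less than 0.5 on the log2 scale.

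Immediate early genes and related factors were unusual in that many were already high at 0 h. Of 32 tested, 20 were called lower and 11 higher. At 0 h the orphan nuclear receptor genes Nr4a1 and Nr4a3, targets of T cell receptor signalling, stood at 1212, 1059.6 and 1142 CPM and 1613, 1372 and 1515 CPM, and at 24 h at 215, 194 and 204 CPM and 292, 268 and 287 CPM. The AP-1 genes Fosl2 and Junb had 1658, 1607 and 1423 CPM and 1342, 1082 and 1150.2 CPM at 0 h. They fell with log2 fold changes of -5.19 (SE 0.13) and -2.14 (SE 0.10), and Dusp1, a phosphatase of MAP kinases, with -5.14 (SE 0.12). Nr4a1 rose first, to 1812 CPM at 3 h, and was lower than at 0 h only at 24 h.

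The members that rose were mainly factors of growth and effector programmes. Myc had 89.1, 88.1 and 95.3 CPM at 0 h and 517, 624 and 609 CPM at 24 h (log2 fold change 2.67, SE 0.14, adjusted p 1.46e-13), with mouse 1 lowest at 24 h. Irf8 had 64.02, 31.5 and 39.2 CPM at 0 h and 499.7, 612 and 587 CPM at 24 h (log2 fold change 3.64, SE 0.24, adjusted p 8.94e-12), with means of 353 CPM at 3 h and 215 CPM at 6 h. Irf8 is also known from B cells and dendritic cells, whose summed markers are given above, and their part in this rise was not tested. Irf4, a factor whose dose follows the strength of the receptor signal, had means of 220.5, 966, 883 and 818 CPM (log2 fold change 1.85, SE 0.16, adjusted p 9.91e-10). Fosl1 and Batf3 rose from low levels, with log2 fold changes of 4.37 (SE 0.33) and 4.78 (SE 0.34). The early growth response genes Egr1 and Egr2 had peaked before, at 393 CPM at 3 h and 332 CPM at 6 h, and were called higher at 24 h with 1.15 (SE 0.15) and 0.62 (SE 0.16).

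Surface receptors of activation did not rise as a group. Of 20, 16 were called lower and 3 higher. The 3 were Il2ra, the alpha chain of the IL-2 receptor and known as CD25, at 100.5, 73.9 and 89.05 CPM at 0 h and 811, 790.3 and 765 CPM at 24 h (log2 fold change 3.17, SE 0.14, adjusted p 1.68e-14), Tfrc, the transferrin receptor, at 59.6, 45.7 and 54.6 CPM at 0 h and 414, 478 and 459.7 CPM at 24 h (log2 fold change 3.07, SE 0.15, adjusted p 7.98e-14), and Tnfrsf4, or OX40, with 0.45 (SE 0.10). Cd69, an early activation marker, had means of 277, 512, 413 and 160.4 CPM, and Tnfrsf9, or 4-1BB, had 452, 773, 1098 and 333 CPM, so that both peaked before 24 h and were called lower than at 0 h. The costimulatory receptors Icos and Cd28 fell from 738 ± 66.9 to 212 ± 28.7 CPM and from 419 ± 31.6 to 157 ± 35.8 CPM. Of 14 inhibitory receptors 5 were called higher and 7 lower, against 39% and 36.8% of all genes tested. Cd200 and Lag3 rose, from 40.7 ± 7.61 to 363 ± 7.74 CPM and from 98.6 ± 32.8 to 252 ± 23.7 CPM, whereas Pdcd1, encoding PD-1, fell from 404 ± 77.6 to 175 ± 22.4 CPM, Ctla4 from 519 ± 38.2 to 179 ± 66.9 CPM and Vsir, encoding VISTA, from 430.1 ± 16.9 to 102 ± 8.48 CPM.

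Of the receptor complex and its proximal kinases, 18 of 25 genes were called lower and 2 higher, with a modest median of -0.59. The falls of Cd3e (-0.41, SE 0.06), Lck (-0.42, SE 0.08) and Cd4 (-0.71, SE 0.10) were small beside those of the phosphatase Ptpn22, 913, 948 and 962 CPM at 0 h and 154, 121 and 111 CPM at 24 h (log2 fold change -2.87, SE 0.11, adjusted p 3.05e-15), and of the ubiquitin ligase Cblb (-1.95, SE 0.07), both of which restrain the receptor signal. The adaptors Lcp2, encoding SLP-76, and Vav1 were the 2 genes called higher, with 0.80 (SE 0.10) and 0.43 (SE 0.06). GTPases of the Gimap cluster, which support lymphocyte survival, were lower in 6 of 8, led by Gimap6, from 1852 ± 133 to 288 ± 6.44 CPM.

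The regulators of T helper fate were mostly lower, 12 of 16 against 2 higher. Tbx21, encoding the Th1 factor T-bet, was the main rise, 55.4, 32.01 and 37.95 CPM at 0 h and 180.1, 221 and 208 CPM at 24 h (log2 fold change 2.26, SE 0.21, adjusted p 1.72e-09). Gata3, the Th2 factor, was called higher by only 0.32 (SE 0.08). Falls were called for Bcl6, the factor of follicular helper cells, from 215 ± 20.7 to 20.8 ± 5.11 CPM (log2 fold change -3.38, SE 0.12, adjusted p 5.71e-16), for Rora, from 186 ± 30.1 to 9.64 ± 4.33 CPM (log2 fold change -4.31, SE 0.14, adjusted p 1.52e-16), and for Maf (-2.32, SE 0.13), Eomes (-2.31, SE 0.20) and Stat4 (-1.88, SE 0.10).

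Foxp3, the lineage factor of regulatory T cells (Tregs), rose and then fell. Its values were 171, 139.9 and 135 CPM at 0 h, 326, 287 and 299 CPM at 3 h, 369, 309 and 260.5 CPM at 6 h and 146, 66.3 and 69.4 CPM at 24 h. Mouse 1 had the highest level at 0, 3, 6 and 24 h, and its 24 h value lay above the 0 h values of the other mice, so that the times overlapped. The fall at 24 h was called (log2 fold change -0.72, SE 0.14, adjusted p 0.000125). Of 21 Treg genes, 14 were called lower and 5 higher. Besides Il2ra and Tnfrsf4, the rises were Gzmb, 27.3, 14.1 and 20.1 CPM at 0 h and 307, 267 and 417 CPM at 24 h (log2 fold change 4.02, SE 0.18, adjusted p 2.22e-14), Capg (1.24, SE 0.11) and Ebi3 (0.65, SE 0.18), genes that conventional T cells also express after activation. Nt5e and Entpd1, the ectoenzymes CD73 and CD39 that make adenosine, fell with -3.22 (SE 0.13) and -1.77 (SE 0.19), and the Helios gene Ikzf2 from 241 ± 55.2 to 65.05 ± 35.4 CPM.

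Growth genes were called higher almost without exception. All 50 tested genes of ribosome biogenesis and RNA polymerase I were called higher, with log2 fold changes from 0.39 to 3.36 and a median of 1.77. Their rise was early, since 42 were called higher at 3 h (20.8% of all genes tested) and 47 at 6 h (32.9%). Nhp2, a core protein of box H/ACA ribonucleoproteins, was measured at 38.4, 31.1 and 38.8 CPM at 0 h and 349.9, 356 and 412 CPM at 24 h (log2 fold change 3.36, SE 0.16, adjusted p 3.68e-14), and Npm1, the nucleolar chaperone nucleophosmin, at 219.6, 231 and 296 CPM at 0 h and 1546, 1435 and 1658 CPM at 24 h (log2 fold change 2.65, SE 0.11, adjusted p 5.42e-15). All 20 cytosolic aminoacyl-tRNA synthetases and all 37 proteasome subunits were also called higher, with medians of 1.58 and 1.28. Among chaperones 31 of 35 were higher and 3 lower. The mitochondrial chaperonin gene Hspd1 had 55.9, 52.7 and 60.2 CPM at 0 h and 557, 754 and 681 CPM at 24 h (log2 fold change 3.54, SE 0.14, adjusted p 2.95e-15), and Hsp90ab1, the constitutive HSP90, went from 2029.8 ± 75.7 to 6399 ± 1290.4 CPM. The 3 lower were the stress-response genes Dnajb1, Xbp1 and Herpud1.

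Genes for cytosolic ribosomal proteins had a lower median than the machinery that builds ribosomes, a difference that was not tested. Of 79, 62 were called higher and none lower, with a median of 0.75. Many members have near-identical processed copies, and how reads that match several places were counted is not given in the sources used here; Rpl38 and Rpl23a, for instance, had means of only 3.44 and 5.47 CPM at 24 h. Without mouse 1, 2 of the list were called lower. Ribosomal proteins of mitochondria were higher in 59 of 60, with a median of 1.61. Mrpl23, the 1 called lower, went from 3.7 ± 0.586 to 2.76 ± 0.75 CPM (log2 fold change -0.45, SE 0.19, adjusted p 0.0406), a call lost under 13 of 19 alternatives.

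Polyamine genes split by enzyme. Srm, the spermidine synthase, had 21.5, 17.4 and 19.2 CPM at 0 h and 427, 591 and 525 CPM at 24 h (log2 fold change 4.70, SE 0.19, adjusted p 3.98e-15), and Eif5a, whose protein is activated by a spermidine-derived hypusine, had 401, 346 and 439 CPM at 0 h and 1881, 2312 and 2209.8 CPM at 24 h (log2 fold change 2.43, SE 0.11, adjusted p 4.25e-14). Odc1, which makes putrescine at the start of the pathway, fell from 958 ± 106 to 348 ± 15.2 CPM (log2 fold change -1.45, SE 0.10, adjusted p 1.93e-11), and the catabolic enzymes Smox and Sat1 fell with -2.65 (SE 0.15) and -1.13 (SE 0.08). Of 15 amino acid transporters 7 were called higher and 3 lower. The light chain Slc7a5 of the leucine transporter LAT1 rose from 106 ± 3.9 to 310.1 ± 72.5 CPM, whereas its heavy chain Slc3a2, known as CD98, fell from 550.2 ± 47.8 to 309 ± 14.2 CPM.

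Supply of 1-carbon units and nucleotides rose in 34 of 35 genes, with a median of 2.55. Beside Shmt1, the serine synthesis enzymes Phgdh and Psat1 rose from 16.1 ± 1.7 to 126 ± 19.95 CPM and from 40.96 ± 3.99 to 403 ± 75.1 CPM. Cad, the enzyme that starts pyrimidine synthesis, rose with 3.23 (SE 0.15) and Gart, of purine synthesis, with 2.98 (SE 0.10). Dut, which removes dUTP, had 35.8, 31.4 and 44.1 CPM at 0 h and 497, 454 and 552 CPM at 24 h (log2 fold change 3.77, SE 0.11, adjusted p 8.01e-17).

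Energy metabolism rose broadly. Nuclear genes of oxidative phosphorylation were higher in 70 of 74, with a median of 1.26. They took 0.647 ± 0.0408% of counts at 0 h and 1.40 ± 0.0715% at 24 h (exact permutation test, two-sided, unpaired, p = 0.1). Ndufa12, a complex I subunit, had 12.1, 9.9 and 13.9 CPM at 0 h and 77.4, 54.6 and 77.4 CPM at 24 h (log2 fold change 2.55, SE 0.13, adjusted p 9.43e-14). In the citric acid cycle 24 of 30 were higher, Fh1, the fumarase, from 52.6 ± 6.21 to 218 ± 16.9 CPM. The mitochondrial genome itself behaved otherwise. Of its 13 messenger genes 7 passed the filter, 3 were called higher and none lower, and the median response of the list was 0.60, -0.30 and -0.09 in mice 1, 2 and 4. mt-Nd1 was measured at 2109, 1769 and 2705 CPM at 0 h and 5368, 2479.5 and 4201 CPM at 24 h (log2 fold change 0.84, SE 0.16, adjusted p 7.98e-05). Without mouse 1 only 1 of the 7 was called higher and 2 were lower, and without mouse 4 also only 1 was higher.

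In glycolysis 17 of 23 genes were higher and 2 lower. Hk2, the inducible hexokinase, had 12.3, 7.88 and 9.55 CPM at 0 h and 111, 148 and 126 CPM at 24 h (log2 fold change 3.68, SE 0.18, adjusted p 6.98e-14). Per kilobase of exon, Hk2 went from 1.66 to 21.5 CPM per kb, still under Hk1, which went from 18.9 to 30.8 CPM per kb. Ldha, the lactate dehydrogenase of muscle type, went from 416 ± 45.1 to 1713 ± 208 CPM (log2 fold change 2.04, SE 0.10, adjusted p 1.52e-13), and the lactate exporter Slc16a1 (MCT1) from 83.5 ± 8.74 to 270.2 ± 20.6 CPM. Slc16a3, the related exporter MCT4, moved the other way, 105, 70.4 and 78.4 CPM at 0 h and 12.1, 15.1 and 15.1 CPM at 24 h (log2 fold change -2.55, SE 0.16, adjusted p 2.48e-12). Gapdh, which has many processed pseudogenes, had a mean of only 27.2 CPM at 24 h, so that its level cannot be read as that of the enzyme.

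Sterol and fatty acid synthesis was higher in 30 of 36 genes. Lss, the lanosterol synthase, went from 12.5 ± 1.4 to 81.5 ± 15.2 CPM and Sqle, the squalene epoxidase, from 18.03 ± 2.04 to 87.6 ± 13.7 CPM. The cholesterol exporters Abca1 and Abcg1, targets of the liver X receptors, were among the 5 called lower. Abca1 had 32.9, 36.9 and 27.7 CPM at 0 h and 0.88, 1.41 and 1.23 CPM at 24 h (log2 fold change -4.79, SE 0.20, adjusted p 9.49e-15) and Abcg1 fell with -3.25 (SE 0.12).

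Genes of the cell cycle rose mainly between 6 h and 24 h. Of 50 genes of DNA replication, 49 were called higher at 24 h and none lower, with a median of 2.57, whereas at 3 h only 6 were higher and 8 lower (20.8% and 20.3% of all genes tested), and at 6 h 15 were higher and 5 lower (32.9% and 27.1%). Mcm10, which starts the replicative helicase, was measured at 9.73, 5.81 and 8.91 CPM at 0 h and 135, 184 and 159.8 CPM at 24 h (log2 fold change 4.36, SE 0.27, adjusted p 3.82e-12), with means of 9.09 CPM at 3 h and 11.3 CPM at 6 h. Rrm2, the ribonucleotide reductase subunit made in S phase, had 35.4, 19.7 and 31.3 CPM at 0 h and 423, 551 and 514 CPM at 24 h (log2 fold change 4.19, SE 0.25, adjusted p 1.42e-12). Cdc6 and Orc1, which load the helicase at origins, rose from 8.13 ± 2.96 to 116 ± 23.7 CPM and from 5.04 ± 0.956 to 70.6 ± 9.98 CPM. Rpa1, a subunit of the single-strand binding protein, was the 1 gene not called. The list as a whole took 0.244 ± 0.00993% of counts at 0 h and 1.07 ± 0.133% at 24 h (exact permutation test, two-sided, unpaired, p = 0.1).

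Genes of this kind are classical targets of E2F factors, and their promoters were read for the E2F motif, here TTTNNCGC with each N a C or a G, on either strand, in the 250 bases before the RefSeq start (GRCm38.p6). Of 40 list members with a promoter sequence 9 held it (22.5%), against 583 of 27025 genes (2.16%), expressed here or not. The ribosome biogenesis list held it in 4 of 45 promoters (8.89%), the mitosis list in 1 of 32 and the quiescence list in 0 of 21. The promoters of the 3 DNA replication members with the motif and the largest rise are shown, with the motif in capitals. They are written 5′ to 3′ on the strand of the gene. They lie at chr11:98907901-98908150 (Cdc6), chr4:108579204-108579453 (Orc1) and chr8:75109259-75109508 (Mcm5), all on the plus strand.
Cdc6: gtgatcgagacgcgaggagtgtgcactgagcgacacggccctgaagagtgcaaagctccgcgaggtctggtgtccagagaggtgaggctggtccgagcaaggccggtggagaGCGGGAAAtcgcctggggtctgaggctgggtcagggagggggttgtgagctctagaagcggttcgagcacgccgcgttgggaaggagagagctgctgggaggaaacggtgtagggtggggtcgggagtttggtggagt
Orc1: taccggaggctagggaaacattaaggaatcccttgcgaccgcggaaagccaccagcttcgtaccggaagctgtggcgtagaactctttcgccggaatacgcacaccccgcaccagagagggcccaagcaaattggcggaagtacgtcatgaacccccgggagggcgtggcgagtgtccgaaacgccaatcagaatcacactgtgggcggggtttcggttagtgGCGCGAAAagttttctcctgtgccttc
Mcm5: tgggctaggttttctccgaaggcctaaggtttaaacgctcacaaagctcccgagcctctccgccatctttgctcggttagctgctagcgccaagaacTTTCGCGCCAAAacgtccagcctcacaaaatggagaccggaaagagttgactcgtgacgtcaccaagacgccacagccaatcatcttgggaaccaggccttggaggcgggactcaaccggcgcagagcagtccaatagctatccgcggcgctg
In Cdc6 the motif ends 131 bases before the start and in Orc1 20 bases before it. Mcm5, a subunit of the helicase, holds 2 overlapping matches on opposite strands, written as 1 run of capitals, and went from 87.7 ± 8.75 to 577 ± 143 CPM (log2 fold change 2.71, SE 0.13, adjusted p 6.79e-14). A match of letters describes the window and does not show that a factor was bound there. The E2F, CCAAT and TTTGAA motifs are not nested in each other, and partial overlaps between them were not separated.

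Mitotic genes rose with the largest median of any list, 3.36, and 37 of 40 were called higher. Cdk1, the mitotic kinase, was measured at 18.3, 8.37 and 18.95 CPM at 0 h and 303, 304 and 336 CPM at 24 h (log2 fold change 4.48, SE 0.24, adjusted p 3.21e-13), Ccnb1, its cyclin B1 partner, at 1.26, 1.43 and 2.22 CPM at 0 h and 30.4, 40.6 and 40.3 CPM at 24 h (log2 fold change 4.54, SE 0.33, adjusted p 4.1e-11), and Ube2c, a ubiquitin-conjugating enzyme of the anaphase-promoting complex, at 11.04, 7.14 and 10.4 CPM at 0 h and 216, 191 and 241 CPM at 24 h (log2 fold change 4.56, SE 0.23, adjusted p 8.96e-14). Mouse 2 began lowest in Cdk1 and Ube2c, and mouse 1 in Ccnb1. In the mouse-wise responses the median of the list was 2.70, 3.85 and 3.27 in mice 1, 2 and 4. The 2 members called lower were Pttg1, the securin, from 67.7 ± 5.03 to 38.5 ± 4.15 CPM, and the centromeric histone gene Cenpa (-0.39, SE 0.12), which lost the call without mouse 2. The CCAAT box was found in 24 of 32 promoters of the list (75%) against 37.5% of all genes, and the CHR motif TTTGAA in 11 (34.4%) against 18.3%, each on either strand. The CCAAT box was also in 60% of the DNA replication promoters and, in the quiescence list, of which most members fell, in 12 of 21 (57.1%).

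**Figure D3:**
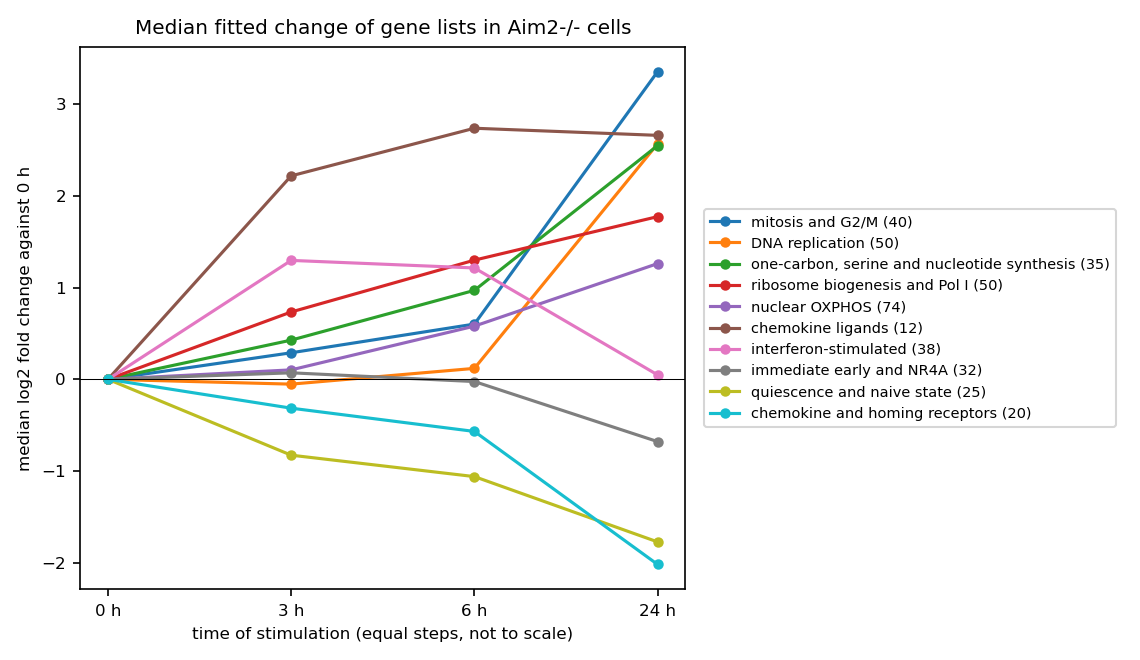
Median fitted log2 fold change against 0 h of 10 lists at 3, 6 and 24 h in Aim2-/- cells, with the number of tested genes in brackets and time in equal steps. DNA replication stays near 0 until 6 h and reaches 2.57 at 24 h, while the interferon-stimulated list goes from 1.30 at 3 h to 0.05 at 24 h.

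Regulators of the G1 phase split into drivers and brakes, with 19 of 32 called higher and 9 lower. Ccne1, encoding cyclin E1, had 8.81, 7.19 and 9.75 CPM at 0 h and 91.03, 166 and 142 CPM at 24 h (log2 fold change 3.97, SE 0.24, adjusted p 1.78e-12) and Cdk4 went from 89.2 ± 8.96 to 669 ± 65.03 CPM. Ccnd2, encoding cyclin D2, had risen to 709.7 CPM at 3 h and 992 CPM at 6 h and stood at 960.3, 1122 and 927 CPM at 24 h. On the scale of CPM per kb, Ccnd2 was at 107 and Ccnd3 at 49.2 at 24 h. The inhibitor gene Cdkn1b, encoding p27, fell in each mouse, 331, 393 and 353 CPM at 0 h and 64.1, 41.96 and 46.9 CPM at 24 h (log2 fold change -2.83, SE 0.13, adjusted p 2.33e-14). Mxd4 and Mxi1, antagonists of MYC, fell with -3.83 (SE 0.13) and -3.25 (SE 0.09). The cell cycle genes Ccne2, E2f7 and Kif23 turned direction after 6 h, with means of 5.76, 4.74 and 29.2 CPM at 0 h, 2.46, 1.84 and 13.96 CPM at 6 h and 21.5, 14.1 and 85.7 CPM at 24 h.

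Counted over the genes past 1 on the log2 scale at 24 h, 1705 of the 3717 higher genes (45.9%) were already called higher at 3 h, 1045 (28.1%) first at 6 h and 967 (26.0%) only at 24 h. For the 3316 lower genes the numbers were 1677 (50.6%), 642 (19.4%) and 997 (30.1%). The same 0 h libraries enter all 3 contrasts.

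**Figure D4:**
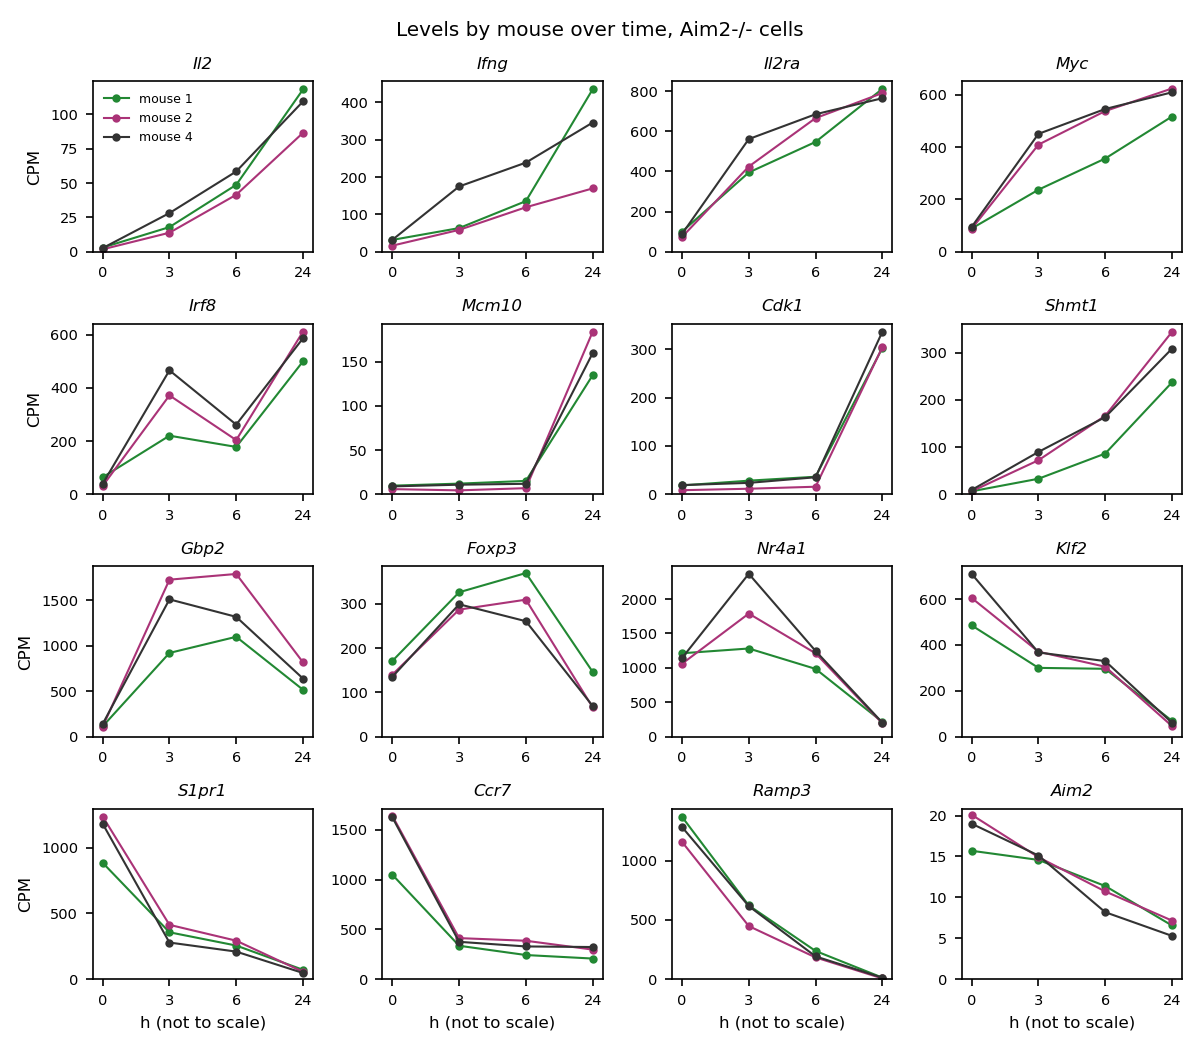
Levels of 16 genes in CPM at 0, 3, 6 and 24 h, 1 line per Aim2-/- mouse, axes from 0. Il2, Il2ra and Myc climb throughout, Mcm10 and Cdk1 rise mainly after 6 h, Gbp2 and Foxp3 peak at 3 to 6 h, and Klf2, S1pr1, Ccr7 and Ramp3 fall from 0 h on.

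Interferon-stimulated genes were a transient response. At 3 h 32 of 38 were called higher and at 6 h 33, none being lower at either time. Over all genes tested, 20.8% were higher and 20.3% lower at 3 h, and 32.9% and 27.1% at 6 h. At 24 h 13 were higher, 13 lower and 12 not called, with a median of 0.05. These shares lie near the 39% and 36.8% of all genes tested. Gbp2, a guanylate-binding GTPase induced by interferon gamma, had means of 122, 1387, 1403 and 659 CPM at 0, 3, 6 and 24 h (log2 fold change 2.40, SE 0.19, adjusted p 1.99e-10 at 24 h), and Iigp1, an immunity-related GTPase, had 57.2, 547, 559 and 324 CPM (log2 fold change 2.51, SE 0.17, adjusted p 1.37e-11). Genes lower at 24 h included Irf7, with 89.3, 165, 140.3 and 32.4 CPM (log2 fold change -1.46, SE 0.13, adjusted p 7.75e-10), Isg15, with 40.5, 36.1, 46.02 and 14.2 CPM (log2 fold change -1.52, SE 0.16, adjusted p 1.89e-08), and the antiviral gene Rsad2 (-2.83, SE 0.29). In the list of MHC class I presentation, 9 of 17 were lower and 4 higher. The heavy chain H2-K1 went from 6577 ± 376 to 2690.4 ± 462 CPM and B2m, its light chain, from 3038 ± 285 to 2018 ± 329.97 CPM, while the immunoproteasome subunits Psmb8 and Psmb9 rose with 1.08 (SE 0.08) and 1.28 (SE 0.08). The H2-Q genes are near-identical to each other, and their values are uncertain for that reason.

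Of 20 genes of the BCL2 family and death receptors, 9 were called higher and 9 lower. Both shares lie near the 39% and 36.8% of all genes tested. Bcl2l1, encoding the survival protein BCL-XL, had 80.1, 56.3 and 70.2 CPM at 0 h and 349, 338 and 360.4 CPM at 24 h (log2 fold change 2.35, SE 0.10, adjusted p 5.33e-15). The BH3-only genes Bcl2l11 (BIM), Bbc3 (PUMA), Pmaip1 (NOXA) and Bmf, which promote apoptosis, were all lower, with -2.12 (SE 0.07), -2.30 (SE 0.17), -2.72 (SE 0.12) and -3.27 (SE 0.22). Lysosomal genes were lower in 20 of 38 and higher in 8; the cathepsin genes Ctsl and Ctss fell with -1.56 (SE 0.13) and -1.47 (SE 0.12), and Ctsz rose with 1.54 (SE 0.09).

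Of the inflammasome and DNA sensing genes, 12 of 19 were called lower and 3 higher. Pycard, the ASC adaptor that AIM2 recruits, went from 43.1 ± 2.85 to 79.1 ± 11.1 CPM (log2 fold change 0.87, SE 0.10, adjusted p 4.16e-08), and Tmem173, encoding the STING adaptor, from 110.1 ± 8.6 to 258 ± 27.9 CPM (log2 fold change 1.23, SE 0.11, adjusted p 9.82e-10). Casp1, the inflammasome protease, fell from 43.3 ± 6.24 to 21.4 ± 8.68 CPM (log2 fold change -1.06, SE 0.13, adjusted p 2.08e-07), and Casp4 and Gsdmd fell with -1.40 (SE 0.12) and -0.71 (SE 0.10). Il18r1, the IL-18 receptor chain, had 164, 154 and 148 CPM at 0 h and 26.9, 13.9 and 14.1 CPM at 24 h (log2 fold change -3.12, SE 0.14, adjusted p 2.05e-14).

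The mice differed in the size of the response. Of the called genes 99.2% in mouse 1, 99.6% in mouse 2 and 99.5% in mouse 4 moved in the fitted direction. These genes were called from the same 3 mice, so the selection largely sets these shares and they do not measure agreement between mice. Mouse 1 had the smallest and mouse 2 the largest median response in the mitosis, DNA replication, 1-carbon and ribosome biogenesis lists, for DNA replication 2.30 and 2.87. In other lists mouse 1 had the largest median. Among these were cytosolic ribosomal proteins (0.87, 0.54 and 0.55 in mice 1, 2 and 4), nuclear oxidative phosphorylation (1.30, 1.26 and 1.22) and cytokines (2.01, 1.57 and 2.00). Summed markers of other cells were highest in mouse 1 and lowest in mouse 2 at 0 h in every list but that of NK cells. In the NK cell list mouse 4 was highest. The part of these cells in the size of the response was not tested.

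**Figure D5:**
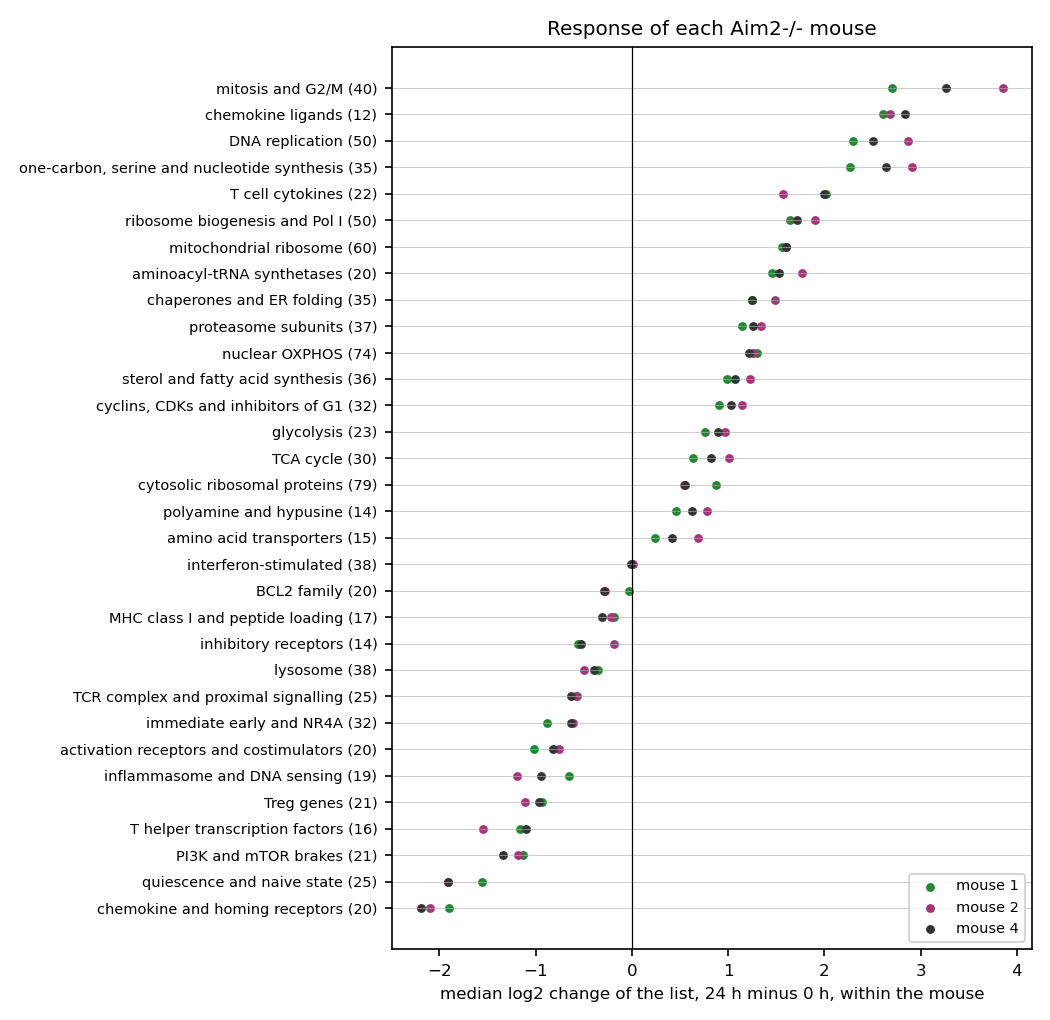
Median log2 change, 24 h minus 0 h, of each list with at least 12 tested genes within each Aim2-/- mouse, 1 point per mouse. The 3 mice lie on the same side of 0 for nearly every list, and mouse 1 has the smallest and mouse 2 the largest median for mitosis, DNA replication and nucleotide supply.

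The response was set against that of the cells labelled WT by the interaction of genotype and time in the same fit. Of 15325 genes 424 (2.77%) were called, 230 (1.5%) with a higher and 194 (1.27%) with a lower response in Aim2-/- cells; sized by library totals only, the split was 311 higher and 171 lower. Without the mouse labelled WT 1, whose Aim2 level is given above, 660 genes were called, 311 with a higher and 349 with a lower response, and 337 of them were among the 424. The count rested on single mice, being 6 without mouse WT 3, 21 without Aim2-/- mouse 1 and 72 without Aim2-/- mouse 4, and without the mouse term it was 0, with 1825 genes at an unadjusted p under 0.05 (DESeq2 with the term called 905). A count over all genes is therefore not firm, and the 12 genes at the ends are given as values. In 355 of the 424, and in 550 of the 660 called without WT 1, the response was the smaller one in Aim2-/- cells. The matching share over all genes tested was not taken, so these counts do not describe the response as a whole. Summed markers of other cells at 0 h also differed between the genotypes. Means in Aim2-/- and WT cells were 204 and 30.8 CPM for neutrophils and 121 and 21.3 CPM for basophils and mast cells. For plasma cells they were 900 and 314 CPM, and those of myeloid cells are given below. The B cell, dendritic cell, NK cell, erythroid and platelet means were also higher in Aim2-/- cells, and the CD8 T cell mean was not. The part of these cells in the counts was not tested.

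Ctla2a, a cysteine protease inhibitor of lymphocytes, was the most stable of the 12. It was measured at 77.9, 59.4 and 80.98 CPM at 0 h and 19.8, 8.26 and 14.9 CPM at 24 h and fell in the cells labelled WT from a mean of 65.4 to 4.64 CPM, an interaction of 1.42 (SE 0.19, adjusted p 0.000879; without WT 1 1.53, adjusted p 0.00169), called in 18 of 19 alternatives. Cd55, encoding the complement regulator decay-accelerating factor, had 26.01, 57.9 and 55.9 CPM at 0 h and 14.3, 8.36 and 12.2 CPM at 24 h against means of 88.02 and 5.8 CPM in WT, an interaction of 2.00 (SE 0.33, adjusted p 0.00608; without WT 1 1.93, adjusted p 0.0167). The other 4 at the upper end were Adh1, Emc9, Myo3b and Mirt1, of which Myo3b was not called without WT 1 (adjusted p 0.0545). Emc9 overlaps Psme1 on the other strand.

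At the lower end F13a1, the coagulation factor gene of macrophages named above, had an interaction of -3.14 (SE 0.52, adjusted p 0.00608; without WT 1 -3.24, adjusted p 0.0145). Its 0 h mean was 26.5 CPM in Aim2-/- and 4.28 CPM in WT cells, and the myeloid markers at 0 h summed to a mean of 311 CPM in Aim2-/- and 75.9 CPM in WT cells. The part of the myeloid cells was not tested. Alpl, the tissue-nonspecific alkaline phosphatase, had 2.13, 2.36 and 1.48 CPM at 0 h and 14.9, 29.9 and 24.2 CPM at 24 h and an interaction of -2.11 (SE 0.39, adjusted p 0.0088), and Asns, the asparagine synthetase, had 13.7, 6.11 and 14.2 CPM at 0 h and 40.6, 41.2 and 36.4 CPM at 24 h and an interaction of -1.64 (SE 0.34, adjusted p 0.0151). Spire1, Aunip and Pkig completed the lower end, and all 6 were called without WT 1. Among the lists, 7 of 25 quiescence genes had a called interaction, against 1.5% of all genes with a higher response, and in all 7 the fall was the smaller one in Aim2-/- cells. In 7 of 50 DNA replication genes, against 1.27% of all genes with a lower response, the rise was smaller. Other lists held called interactions too, among them 4 of 14 inhibitory receptors, all lower, and 4 of 21 PI3K and mTOR brakes, all higher. Of 16 T helper factors 3 were lower and 1 higher in the response. Without WT 1 the quiescence and DNA replication counts were 6 and 16. In that fit the calls over all 15656 genes were also more, 311 with a higher and 349 with a lower response. Both counts of 7 rest on the 424 calls, of which none was made without the mouse term, and no list test was made.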

How the data were processed

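RNA of splenic CD4+ T cells was sequenced from TruSeq stranded messenger RNA libraries. The submitters' processing notes name STAR and GRCm38, and the authors deposited raw counts per Ensembl gene, not normalized; whether the counting used strand is not given in the sources used here. Samples were grouped by the labels. Members and gene lists were chosen with earlier results of these data known.

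Counts of all 24 libraries were fitted in edgeR 4.0.16 (R 4.3.3) by the quasi-likelihood F test, two-sided, with 8 group means of genotype and time, a term for each mouse, TMM factors and filterByExpr (minimum count 10). That kept 15325 of 31367 genes with a count and left 12 residual degrees of freedom and a biological coefficient of variation of 9.78%. P-values were adjusted by Benjamini-Hochberg over all genes tested. The mouse term follows the mouse numbers in the labels, and deviations from the group means correlated within each Aim2-/- mouse (r = 0.384, 0.389 and 0.240 between 0 h and 24 h for mice 1, 2 and 4). Replicates are separate mice, and no 2 libraries of a group agreed within sampling noise. CPM were computed with TMM-scaled totals of 19492077 to 20649644 counts in the 6 libraries compared. The fits were tested on simulated data first.

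The text names Aim2, list members, the 12 largest rises and falls among called genes without overlap, of at least 10 CPM and with a named symbol, and the 6 highest and lowest interactions. Some list members count in their lists but are not reported here by name. Motifs were counted in RefSeq promoters. Alternatives were the fit without the mouse term, RLE factors, library totals, DESeq2 1.42.0, limma-voom (limma 3.58.1), other filters, fewer libraries in the fit and left-out libraries and mice.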

Additional observations from a re-analysis of the deposited data

Results flagged for a closer look

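In 34 named genes the 24 h response was called different between Aim2-/- and WT cells by the interaction term of the fit (adjusted p under 0.05, edgeR). It is given here as the log2 difference, Aim2-/- minus WT. Over all genes tested 2.77% were called, and 0 genes in the fit without the mouse term. The genes at the ends were chosen for their called interaction, so the number 34 is set in part by that choice. At the ends of the range stood Cd55 (2.00), Adh1 (1.91), Emc9 (1.53), Myo3b (1.49), Ctla2a (1.42) and Mirt1 (1.40), and F13a1 (-3.14), Alpl (-2.11), Spire1 (-1.89), Aunip (-1.70), Asns (-1.64) and Pkig (-1.61). Genes of quiescence and homing that fell less in Aim2-/- cells were Il7r (1.13), Txnip (0.87), S1pr1 (0.84), Klf2 (0.83) and Cdkn1b (0.65). The brakes of PI3K, mTOR and MYC that fell less were Pik3ip1 (0.92), Mxd4 (0.70) and Sesn1 (0.61), and the receptor gene and the nuclear receptor that fell less were Il18r1 (0.88) and Rora (0.74). Of the factors and receptors, Irf8 (-1.34), Tbx21 (-1.20), Eomes (-1.35), Lag3 (-1.47), Pdcd1 (-1.10) and Cd200 (-0.85) were lower in their response; Pdcd1 and Eomes fell in Aim2-/- cells. The growth, survival and lysosomal genes that rose less were Mcm5 (-0.77), Phgdh (-0.76), Cad (-0.76), Bcl2l1 (-0.75), Slc16a1 (-0.57) and Ctsz (-0.51).

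Without the mouse labelled WT 1, whose Aim2 level goes against its label, 26 of the 34 kept an adjusted p under 0.05. The 8 that did not were Myo3b (adjusted p 0.0545), Pik3ip1 (adjusted p 0.066), Il18r1 (adjusted p 0.0509), Rora (adjusted p 0.077), Cdkn1b (adjusted p 0.0524), Slc16a1 (adjusted p 0.0575), Cad (adjusted p 0.0569) and Irf8 (adjusted p 0.0879). Pdcd1, the PD-1 gene, and Ctla2a were called with the same sign in 18 of 19 alternatives, the others in 8 to 17.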

How the results depend on the processing

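The number of genes called at 24 h against 0 h in Aim2-/- cells stayed within 1.5 times of 11614 under all 19 alternatives, from 10142 with a mean of at least 1 CPM to 11708 without WT replicate 1. Leaving out libraries or mice gave 10790 to 11708, and the fit with no replicate block 10778. Among the named genes 176 of 181 kept their call under each alternative that could give a value, and none turned. The calls lost were Calcrl, Cxcl10, Cenpa, Mrpl23 and Il24. The interaction was not stable. With no replicate block 0 of the 424 genes were called (1825 at an unadjusted p under 0.05), against 905 with DESeq2 and 1267 without a filter on low counts. Leaving out libraries or mice moved the count from 6 to 1397: 6 without WT replicate 3, 660 without WT replicate 1, 21, 1186 and 72 without Aim2-/- mice 1, 2 and 4, and 78, 758, 81, 1397 and 214 without the 0 h libraries of mice 1 and 2 and the 24 h libraries of mice 1, 2 and 4. The cause was not tested. Sized by library totals, 64.5% of the interaction calls were higher, against 54.2%. In a window of 200 bases the shares of all promoters with a motif were 1.83% for E2F, 14.4% for TTTGAA and 32.7% for CCAAT. With 3 counts as the floor, levels under about 0.15 CPM could not be told from 0. Intervals and floors cover counting error only.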
